A study of Mus musculus with 12 samples.

Results

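A set of 10 genes that mark or hold together the endothelium, the cell layer that lines blood and lymph vessels, was followed in mouse quadriceps: Sox7, Sox17, Sox18, Cldn5, Cdh5, Pecam1, Emcn, Egfl7, Robo4 and Nos3. They were taken as every non-control probe whose gene name on the array equals 1 of these symbols, which gave 16 of 41174 gene probes. Of these probes 13 stood clearly above background in 6 or more of the 12 mice, and all 10 genes were among the 16526 genes and unnamed probes tested. The tissue came from male C57BL/6J mice aged 13 weeks, with 1 array per mouse. In the exercised group (n = 6) the mice had run on a motorised treadmill for 4 weeks and the muscle was taken 3 hours after the last bout, and the mice of the other group (n = 6) stayed sedentary. The exercised mice were all sampled after a bout, so the effect of the last run and that of the training period cannot be told apart. Mice are named by the set and animal number of their titles, so that s2m3 is animal 3 of set 2; what the sets stand for is not stated in the labels.

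Endothelial cells are held to their neighbours by tight junctions, built from claudins, and by adherens junctions, built from VE-cadherin. Their identity is kept by transcription factors that include the SOXF family, whose members bind DNA through a conserved HMG box and act in the forming of arteries, veins and lymph vessels. In muscle these cells form the capillary bed around the fibres, which is known to grow with endurance training.

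Levels are log2 processed signal relative to the 75th percentile of the same array, so that 0 is the level of that percentile. They compare mice for 1 probe and say nothing of 1 gene against another. No difference in array quality between the groups passed a two-sided exact permutation test: 23192 ± 957 probes were well above background in exercised and 23045 ± 1187 in sedentary mice (SD, n = 6 each, p = 0.805), and the 75th percentile was 206 ± 20.1 against 190 ± 24.9 units of intensity (p = 0.229). The mice were spread over 3 slides: slide 1 held 1 exercised and 3 sedentary mice, slide 2 held 3 exercised and 1 sedentary, and slide 3 held 2 of each group. Markers of the muscle fibre were measured for 10 of 10 genes and 0 of them changed (limma, 1 at an unadjusted p below 0.05), with a median log2 difference of -0.014.

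In exercised muscle 4 of the 10 genes changed, and they moved in both directions (limma, Benjamini-Hochberg adjusted p below 0.05 over all genes). Sox18 and Sox7, which encode SOXF factors, rose 1.70-fold and 1.59-fold. Cldn5, which encodes the main claudin of endothelial tight junctions, was 1.82-fold lower, and Egfl7, which encodes a protein secreted by endothelial cells, was 1.49-fold lower. Over all genes 3.64% changed, 1.8% higher and 1.84% lower. At an unadjusted p below 0.05 the count was 7 of 10 genes, as for 16.2% of all genes. The 10 genes had a median log2 difference of 0.10, beside -0.028 over all genes tested. The exercised and sedentary mice did not overlap in 2 of the 10 genes, Sox7 and Egfl7, as in 3.01% of all genes. In whole muscle a change in the number of endothelial cells and a change in RNA per cell cannot be told apart. With slide as a block 1 of the 10 genes passed, Sox7, as did 2.11% of all genes. The count was 1 without exercised mouse s2m3, without sedentary mouse s1m1 or without sedentary mouse s2m4, and 2 without sedentary mouse s1m6. Over all genes the counts in these fits were 496, 518, 419 and 452, in the same order.

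**Figure D1:**
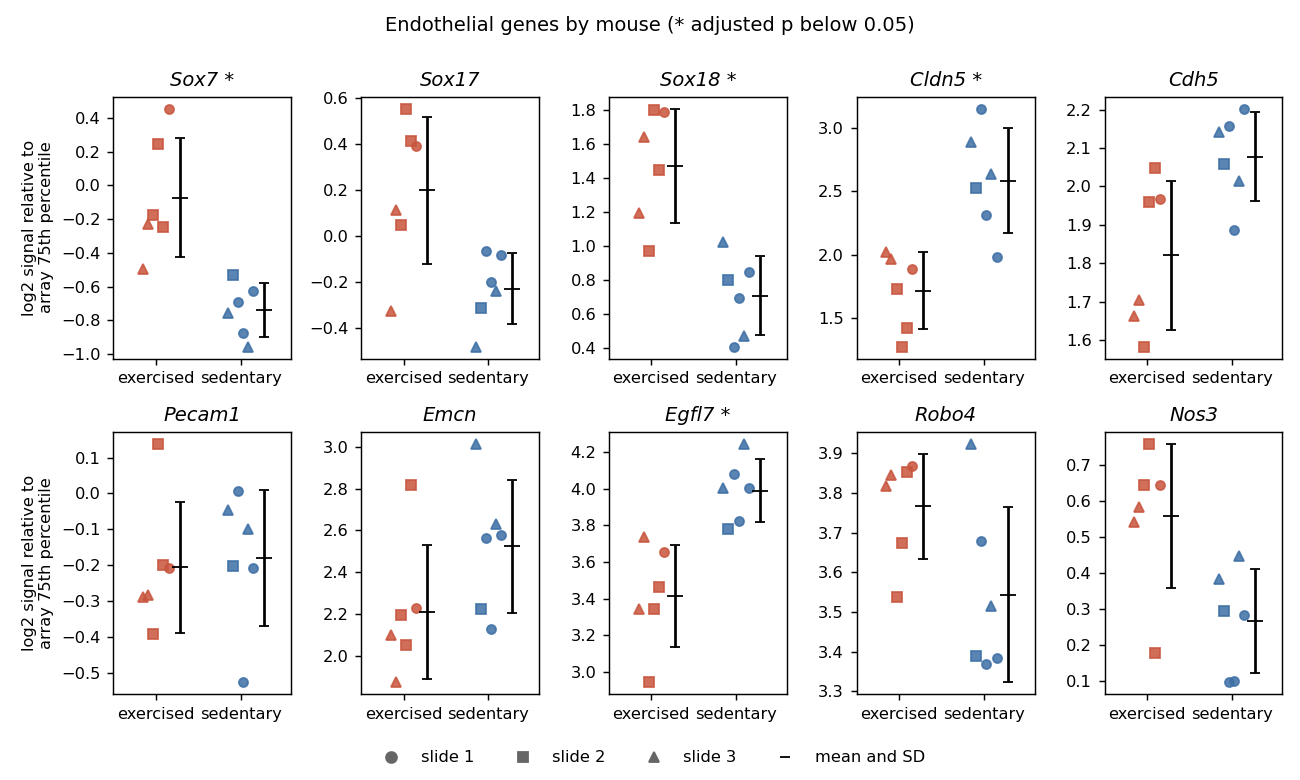
Level of each of the 10 genes in every mouse, as log2 signal relative to the 75th percentile of the array (vertical axis, a scale of its own for each gene), with exercised mice left of sedentary mice. Each point is 1 mouse, its shape gives the slide, and the bar gives mean and SD (n = 6 each). The groups do not overlap for Sox7 and Egfl7, and for Pecam1 most mice of both groups lie in a shared range.

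The oligonucleotides that read the genes that changed, and those that read Sox17, are given here by their first 30 bases of 60, from the array files, with the position of the whole probe on genome build mm9 as the array annotation states it. They are shown so that each value can be tied to the stretch of transcript that was measured. The annotation used here names the gene of each probe and not its exon.
Sox18, probe A_51_P472274, chr2:181404789-181404848, minus strand: cttcctttcgcatatgtatgttagggtatg
Sox7, probe A_51_P476018, chr14:64569419-64569478, plus strand: agtcccggatggatattaataatctcgtga
Sox7, probe A_52_P644005, chr14:64563196-64563255, plus strand: cagaaagagatattgtcacagagaaaaaga
Sox17, probe A_52_P279368, chr1:4481503-4481562, minus strand: ctcactgacttattccatttcttgaaagtg
Sox17, probe A_51_P273667, chr1:4481890-4481949, minus strand: cagtatctgccctttgtgtataagcccgag
Sox17, probe A_52_P365096, chr1:4485231-4485290, minus strand: ggaacctccagtaagccagatttggtctct
Cldn5, probe A_51_P189814, chr16:18778046-18778105, plus strand: tcctactgagatcctgggggcactagatgc
Egfl7, probe A_52_P15122, chr2:26447977-26448036, plus strand: aggctggatagagcagtcatccctagatcc

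The SOXF genes were each higher on average in exercised muscle, and Sox18 and Sox7 passed the test. Sox18, known in the mouse for switching on the lymphatic programme, had a level of 0.97 to 1.80 (median 1.54) in exercised mice, against 0.41 to 1.03 (median 0.75) in sedentary mice. A single pair overlapped: exercised s2m1, the lowest of its group, lay below sedentary s1m1, the highest of its group. The means were 1.47 ± 0.33 and 0.71 ± 0.23 (SD, n = 6 each), a log2 difference of 0.76 (95% confidence interval 0.43 to 1.1, limma adjusted p = 0.0171). The call held when each of the 12 arrays was left out in turn (adjusted p 0.00673 to 0.0445). With slide as a block the difference was 0.79 with an adjusted p of 0.058.

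Sox7, which acts in vessel formation beside Sox18, had a level of -0.49 to 0.46 (median -0.20) in exercised mice, against -0.96 to -0.53 (median -0.72) in sedentary mice. All 6 exercised mice were above the highest sedentary mouse, s1m5, and exercised s2m5 was the highest. The means were -0.07 ± 0.35 and -0.74 ± 0.16 (SD, n = 6 each), a log2 difference of 0.66 (0.34 to 0.99, limma adjusted p = 0.0272). With slide as a block it was 0.69 (adjusted p = 0.0367). The adjusted p was 0.0562 without exercised s2m3, and 0.051, 0.0506, 0.0614 and 0.0654 without sedentary s1m1, s1m6, s2m2 and s2m4. A further Sox7 probe, which the array assigns to a cDNA clone and places upstream of the first, was 0.74 higher in exercised mice (0.34 to 1.14, adjusted p = 0.0466 over all probes kept, of which 3.31% passed). Its level was -2.13 to -1.13 in exercised mice and -2.79 to -1.88 in sedentary mice, where sedentary s1m1 lay above exercised s1m1 and s1m5.

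Sox17, known for its part in arterial identity, had a level of -0.32 to 0.55 (median 0.25) in exercised mice, against -0.48 to -0.07 (median -0.22) in sedentary mice. In 5 of 6 exercised mice it was above every sedentary mouse, and exercised s1m1 lay among the sedentary mice. The log2 difference was 0.43 (0.13 to 0.73) and did not pass (limma adjusted p = 0.121), and it was 0.53 with an adjusted p of 0.0216 without that mouse. Leaving out any other single array gave no pass, with limma adjusted p up to 0.207 over the 12 fits. A further Sox17 probe gave 0.41 (0.10 to 0.73, adjusted p = 0.17). The Sox17 probe that the annotation places upstream of the other two was well above background on 0 of 6 exercised and 0 of 6 sedentary arrays, as was a probe assigned to a cDNA clone and annotated on the opposite strand.

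**Figure D2:**
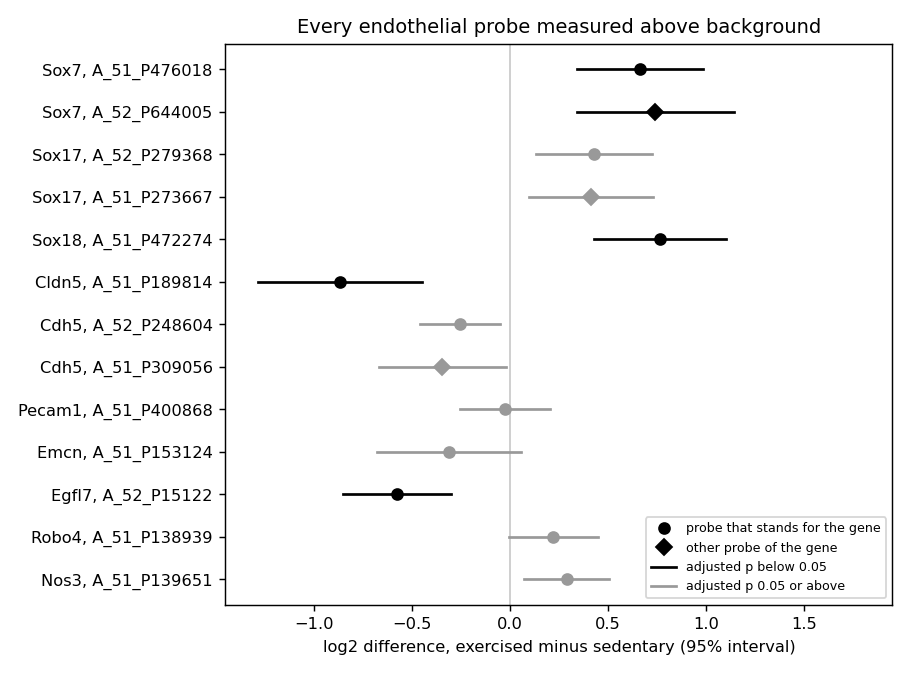
Log2 difference of exercised minus sedentary mice (horizontal axis) for the 13 probes of the 10 genes that were measured above background, with 95% intervals from the fit over all probes kept. Black marks adjusted p below 0.05; for Sox7, Sox17 and Cdh5 both probes of the gene lie on the same side of 0.

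Of the genes of cell junctions and the cell surface, Cldn5 passed the test. Cldn5 had a level of 1.27 to 2.02 (median 1.81) in exercised mice, against 1.98 to 3.15 (median 2.58) in sedentary mice. In 5 of 6 sedentary mice it was above every exercised mouse, and sedentary s2m5 lay below exercised s1m1. The means were 1.71 ± 0.31 and 2.58 ± 0.41 (SD, n = 6 each), a log2 difference of -0.87 (-1.29 to -0.45, limma adjusted p = 0.0271). With slide as a block it was -0.80 (adjusted p = 0.0709). The adjusted p was 0.0526, 0.0557 and 0.057 without exercised s2m1, s2m3 and s2m4, and 0.0555, 0.0505 and 0.0611 without sedentary s1m1, s1m5 and s2m4.

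Cdh5 encodes VE-cadherin, the adhesion protein of endothelial adherens junctions, and did not pass. Its level was 1.58 to 2.05 (median 1.83) in exercised mice, against 1.89 to 2.20 (median 2.10) in sedentary mice. Exercised s2m1, s1m1 and s1m5 lay below every sedentary mouse, and the other 3 were within the sedentary range. The log2 difference was -0.26 (-0.46 to -0.053, limma adjusted p = 0.177), and a further probe gave -0.34 (-0.67 to -0.022, adjusted p = 0.279).

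Pecam1 encodes CD31, an adhesion molecule of endothelial contacts that platelets and leukocytes also carry. Its level was -0.39 to 0.14 (median -0.25) in exercised mice, against -0.53 to 0.0067 (median -0.15) in sedentary mice. The ranges lay over each other, with a log2 difference of -0.026 (-0.26 to 0.20, limma adjusted p = 0.941). The interval holds changes of up to 1.15-fold higher and a fold of 0.837 at its lower end. A further Pecam1 probe, assigned to a cDNA clone, was above background on 1 exercised and 1 sedentary array. Leukocyte markers (9 measured of 10) had 0 changed genes (limma, 1 at an unadjusted p below 0.05) and a summed level, relative to the 75th percentile, of 61.1 to 93.6 in exercised and 41.9 to 106 in sedentary mice. Platelet markers (5 measured of 7) had 0 changed genes, also at an unadjusted p below 0.05 (limma), and summed to 5.66 to 8.30 in exercised and 5.48 to 10.51 in sedentary mice. Each of these sums rests mostly on 1 bright probe. Mean log2 levels in exercised and sedentary mice were 5.98 and 5.92 for Lyz2, and 0.93 and 0.84 for Csf1r, the next leukocyte marker. They were 2.39 and 2.60 for Pf4, and 0.031 and -0.057 for Itgb3, the next platelet marker.

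Emcn encodes endomucin, a sialomucin of capillary and venous endothelium. Its level was 1.88 to 2.82 (median 2.15) in exercised mice, against 2.13 to 3.01 (median 2.57) in sedentary mice. Exercised s2m4 was far above the other exercised mice and inside the sedentary range. The log2 difference was -0.31 (-0.68 to 0.06, limma adjusted p = 0.408).

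Egfl7 encodes a protein that endothelial cells deposit in the vessel wall, and its gene also holds the microRNA miR-126, which was not measured. Egfl7 had a level of 2.95 to 3.74 (median 3.41) in exercised mice, against 3.78 to 4.24 (median 4.00) in sedentary mice. All 6 exercised mice were below the lowest sedentary mouse, s1m5, and exercised s2m1 was the lowest of all. The means were 3.41 ± 0.28 and 3.99 ± 0.17 (SD, n = 6 each), a log2 difference of -0.57 (-0.85 to -0.30, limma adjusted p = 0.0271). With slide as a block it was -0.49 (adjusted p = 0.0748). The adjusted p was 0.0507 and 0.0558 without exercised s1m1 and s2m3, and 0.0505, 0.0613, 0.0638 and 0.0502 without sedentary s1m1, s1m6, s2m4 and s2m5.

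Robo4, an endothelial receptor of the Roundabout family that is known to steady vessels, did not pass. Its level was 3.54 to 3.87 (median 3.83) in exercised mice, against 3.37 to 3.92 (median 3.45) in sedentary mice. Sedentary s1m1 was the highest of all 12 mice, and 4 sedentary mice lay below every exercised mouse. The log2 difference was 0.22 (-0.0033 to 0.45, limma adjusted p = 0.317).

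Nos3 encodes the endothelial nitric oxide synthase, whose product relaxes vessels. Its level was 0.18 to 0.76 (median 0.61) in exercised mice, against 0.10 to 0.45 (median 0.29) in sedentary mice. In 5 of 6 exercised mice it was above every sedentary mouse, and exercised s2m4 was far below the others. The log2 difference was 0.29 (0.07 to 0.51) and did not pass (limma adjusted p = 0.153). Without exercised s2m4 it was 0.37 with an adjusted p of 0.0317. No other single array left out gave a pass, with limma adjusted p up to 0.286 over the 12 fits. Nos3 and Pecam1 were each read by a probe printed as 10 spots per array, and the other probes had 1 spot.

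Since exercised and sedentary arrays were spread unevenly over the slides, the difference of the group means was also taken within each slide, where the number of arrays allows a value. Sox18 was 1.14, 0.60 and 0.67 higher in exercised mice on slides 1, 2 and 3 on the log2 scale, and Sox7 was 1.18, 0.47 and 0.50 higher. For Cldn5 the differences were -0.60, -1.05 and -0.77, and for Egfl7 -0.31, -0.53 and -0.58. Sox17, Robo4, Nos3 and Cdh5 likewise kept 1 sign on the 3 slides, while Pecam1 (0.036, 0.052 and -0.21) and Emcn (-0.20, 0.13 and -0.83) did not. Within a slide 0 of the 10 genes passed in limma on slides 1, 2 and 3, with 4, 1 and 5 at an unadjusted p below 0.05, as for 6.11%, 5.87% and 13% of all genes. With 0, 8 and 0 genes called in all on these slides, the arrays of a single slide could hardly show a call. A difference in the training effect between the title sets passed for none of the 10 genes and no other gene tested (limma interaction, 0 genes at an adjusted p below 0.05, with 0 of the 10 and 1445 of all genes at an unadjusted p below 0.05). Sox7 came closest, with 0.30 in set 1 and 0.89 in set 2 (unadjusted p = 0.0512, adjusted p = 0.569).

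**Figure D3:**
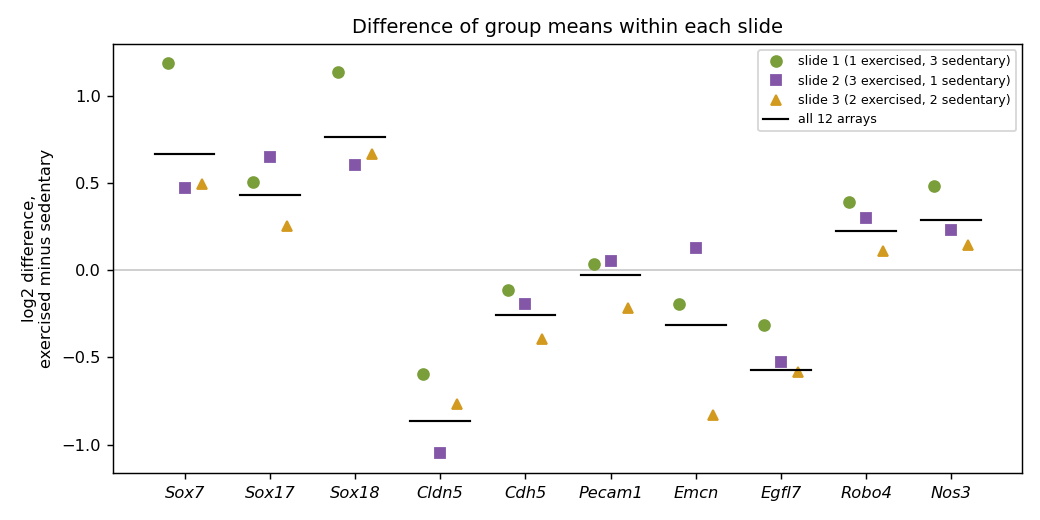
Log2 difference of exercised minus sedentary means (vertical axis) for each of the 10 genes, within slide 1 (1 exercised, 3 sedentary), slide 2 (3 and 1) and slide 3 (2 and 2), with a black line for the estimate from all 12 arrays. Sox7, Sox18 and Sox17 lie above 0 and Cldn5, Cdh5 and Egfl7 below 0 on every slide, and Emcn and Pecam1 cross 0.

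Of the tendon cell markers, 8 of 8 had a higher mean in exercised mice (median log2 difference 0.92), 7 at an unadjusted p below 0.05 and 0 at an adjusted p below 0.05 (limma), and their summed level was 63.7 to 162 in exercised and 27.9 to 83.2 in sedentary mice. Those with the smallest p were Fmod (0.92, adjusted p = 0.122), which encodes a matrix protein, Tnmd (1.11, adjusted p = 0.153), a tendon cell gene, and Kera (0.91, adjusted p = 0.153). With the tendon score of each array in the model, an alternative chosen after seeing the data, Sox18 had a log2 difference of 0.51 (adjusted p = 0.196), Sox7 of 0.46 (0.259), Cldn5 of -0.80 (0.17) and Egfl7 of -0.70 (0.0532). The 1 gene of the 10 that passed in that fit was Cdh5, at -0.44 with an adjusted p of 0.035, beside 294 of all genes. The score ran from -0.37 to 1.12 in exercised and from -1.52 to 0.048 in sedentary mice. Since it went partly with the groups, that fit cannot fully tell tendon content and exercise apart. Of the adipocyte markers, 7 were measured of 8, 6 had a higher mean in exercised mice (median 0.64), 2 at an unadjusted p below 0.05 and 0 at an adjusted p below 0.05 (limma), and they summed to 32.9 to 159 in exercised and 24.7 to 116 in sedentary mice. Ucp1, a brown fat gene, had a log2 difference of 4.35 (0.88 to 7.82, limma adjusted p = 0.18) and Cidea of 1.79 (adjusted p = 0.258). Adipoq had 0.41 (adjusted p = 0.731), and the 1 marker with a lower mean was Lep (-0.16, adjusted p = 0.919). With the adipocyte score in the model 4 of the 10 passed, with Sox17 (0.60, adjusted p = 0.0189) in place of Egfl7 (-0.49, adjusted p = 0.0879). Over all genes 548 passed in that fit. No defining marker of the endothelium among the 10 was missing, since all were above background on all 12 arrays by the probe that stands for the gene.

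The variation between mice of 1 group was also compared between the genes. After the mean of each group was subtracted, 34 of the 45 pairs among the 10 genes had a positive Pearson correlation over the 12 arrays, and 0 pairs passed an adjusted p of 0.05 in a permutation test. The share of positive pairs among other genes was not computed. The pair with the smallest p was Pecam1 and Cdh5, at r = 0.66 (permutation p = 0.0129, adjusted over 45 pairs 0.445) and rho = 0.69 (permutation p = 0.0172, adjusted 0.447). It was 0.57 without the 2 arrays farthest from the median and 0.75 with slide means also removed. Sox7 correlated with Sox18 at r = 0.61 and with Sox17 at 0.64, and Cldn5 with Sox17 at -0.49, each with an adjusted permutation p of 0.445. The values of 1 array share their RNA preparation, hybridisation and scaling.

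**Figure D4:**
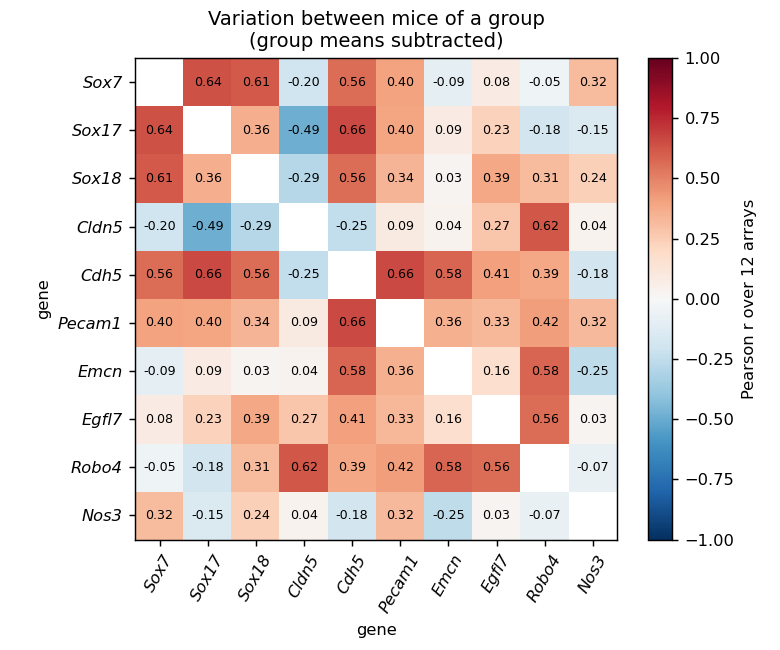
Pearson correlation between each pair of the 10 genes over the 12 arrays after the mean of each group was subtracted (colour scale from -1 to 1, value printed in each cell). Pecam1 with Cdh5 reads 0.66 and Cldn5 with Sox17 reads -0.49.

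The genes whose levels followed each of the 10 most closely between mice of a group were found among 13378 genes with a symbol, by the Pearson correlation over the 12 arrays after group means were subtracted. For Sox18 they were Asap2 (0.90) and Pdzrn4 (0.89), for Sox7 Dse (0.92), Kbtbd2 (0.90) and Golim4 (0.88), and for Sox17 Cys1 (0.95), Ugt2b34 (0.90) and AI463229 (0.89). For Cldn5 they were Spcs2 (0.88), 2310047K21Rik (0.88) and Rpp40 (0.88), and for Egfl7 Sec14l1 (0.95), Slc39a1 (0.92) and Ppp1r16b (0.88). Cdh5 was followed by Adcy7 (0.95), Myo7a (0.93) and Rassf3 (0.92), Pecam1 by Colgalt2 (0.96), Bcl11a (0.94) and Bambi (0.93), and Emcn by AI413582 (0.96), Bmp6 (0.94) and Sult5a1 (0.92). Robo4 was followed by Crybb1 (0.94), Srpx2 (0.93) and D630033O11Rik (0.93), and Nos3 by Jam2 (0.92), Micall2 (0.88) and Hyou1 (0.85). Jam2, which encodes a junctional adhesion molecule, is also among the other junction genes given next. With 12 arrays and this many genes, high values of this kind are picked as the largest of many, so they are given as a description.

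Among 21 other measured genes of endothelial junctions, 0 were higher and 2 lower in exercised muscle (limma), with a median log2 difference of -0.017. Afdn, which encodes the adaptor afadin of adherens junctions, had a log2 difference of -1.17 (-1.41 to -0.92, adjusted p = 0.000159), and Gja4, which encodes a connexin of arterial endothelium, of -0.62 (adjusted p = 0.0349). Both also passed with slide as a block. Jam2 had -0.25 and did not pass (adjusted p = 0.0893). Over all genes 1.84% were lower. At an unadjusted p below 0.05, 2 of the 21 were higher and 5 lower (limma), beside 1058 and 1623 of all 16526 genes. The genes of this list and of the next were read in whole muscle, so their signal need not come from endothelial cells.

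Of 36 other genes of endothelial identity, 3 were higher and 4 lower in exercised muscle (limma), and 29 did not pass. Their median log2 difference was -0.047. At an unadjusted p below 0.05, 5 were higher and 14 lower (limma), beside 1058 and 1623 of all 16526 genes. The higher ones past the adjusted threshold were S1pr1, a receptor for sphingosine-1-phosphate (0.94, adjusted p = 0.0129), the transcription factor gene Klf4 (0.87, adjusted p = 0.0268) and Flt1, which encodes a VEGF receptor (0.42, adjusted p = 0.0143). The lower ones past it were Kdr, which encodes the main signalling receptor for VEGF (-0.77, adjusted p = 0.00679), Myct1 (-0.67, adjusted p = 0.00617), and the transcription factor genes Lyl1 (-0.66, adjusted p = 0.0024) and Ets1 (-0.61, adjusted p = 0.0224). With slide as a block 1 of these genes was higher and 3 lower, and 2.11% of all genes passed. Without the block 1.8% of all genes were higher and 1.84% lower.

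Vessel type markers were read in the same fit, in which 1.8% of all genes were higher and 1.84% lower. Of 9 arterial markers 0 were higher and 2 lower, Efnb2 (-0.61, adjusted p = 0.0301) and Gja4, which the junction list also holds, while Unc5b had -0.62 and did not pass (adjusted p = 0.0681). Gja4 also passed with slide as a block, and Efnb2 did not (adjusted p = 0.0873). Of 7 venous markers 0 were higher and 1 lower, the apelin receptor gene Aplnr (-1.48, adjusted p = 0.0175), and Selp (-1.15, adjusted p = 0.051) and Ackr1 (-0.69, adjusted p = 0.0578) did not pass. Of 8 capillary markers 1 was higher, Timp4 (0.79, adjusted p = 0.0023), and 0 were lower, and the next by p were Cdh13 (-0.25, adjusted p = 0.26) and Rgcc (0.39, adjusted p = 0.389). Of 7 lymphatic markers 1 was higher, Lyve1 (0.81, adjusted p = 0.0276), and 0 were lower, with Mmrn1 at 0.78 (adjusted p = 0.0913) and Reln at 0.31 (adjusted p = 0.302). With slide as a block Aplnr and Timp4 passed (limma adjusted p = 0.033 and 0.014), and Lyve1 did not (adjusted p = 0.101). The remaining lymphatic markers hardly differed or fell short of the threshold: Ccl21a at 0.27 (adjusted p = 0.471), Prox1 at 0.060 (0.859), Pdpn at 0.044 (0.929) and Flt4 at 0.022 (0.966). Prox1, Pdpn and Flt4 were dim, with mean levels of -2.83, -4.16 and -3.89 in exercised mice. Whether lymphatic vessels changed as a whole was not tested. The median log2 difference was -0.23 for arterial, -0.24 for venous, 0.080 for capillary and 0.27 for lymphatic markers. At an unadjusted p below 0.05, 5 arterial and 4 venous markers were lower and 0 of either list higher (limma). By the same measure 1 capillary marker was higher and 1 lower, and 3 lymphatic markers were higher and 0 lower. Over all 16526 genes 1058 were higher and 1623 lower by it. Of 12 smooth muscle and pericyte markers 2 were higher, Cnn1 (0.91, adjusted p = 0.00547) and Myh11 (0.46, adjusted p = 0.0421), and 1 was lower, Kcnj8 (-0.63, adjusted p = 0.0134). Cnn1 and Kcnj8 also passed with slide as a block, and Myh11 did not (adjusted p = 0.134).

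Of the 17 measured genes around nitric oxide, the pathway of Nos3, 1 was higher and 0 lower (limma), beside 1.8% and 1.84% of all genes. It was Hsp90aa1, which encodes a chaperone that binds the synthase (1.08, adjusted p = 0.0213), and it did not pass with slide as a block (adjusted p = 0.0721). Prkg1, the kinase gene downstream of cyclic GMP, had -0.46 (adjusted p = 0.0619), and Slc7a1, an arginine transporter gene, had 0.46 (adjusted p = 0.091). At an unadjusted p below 0.05, 3 of the 17 were higher and 3 lower (limma). Of 9 Slit, Robo and UNC5 genes, which include possible partners of Robo4, 0 passed (4 at an unadjusted p below 0.05, limma), and those with the smallest p were Unc5b, Slit2 (-0.27, adjusted p = 0.0809) and Flrt2 (-0.29, adjusted p = 0.105). Of 8 SOX genes outside the SOXF family 0 passed (4 at an unadjusted p below 0.05, limma), led by Sox13 (0.47, adjusted p = 0.116), Sox4 (-0.48, adjusted p = 0.132) and Sox8 (-0.75, adjusted p = 0.291). Over all genes 16.2% were at an unadjusted p below 0.05.

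**Figure D5:**
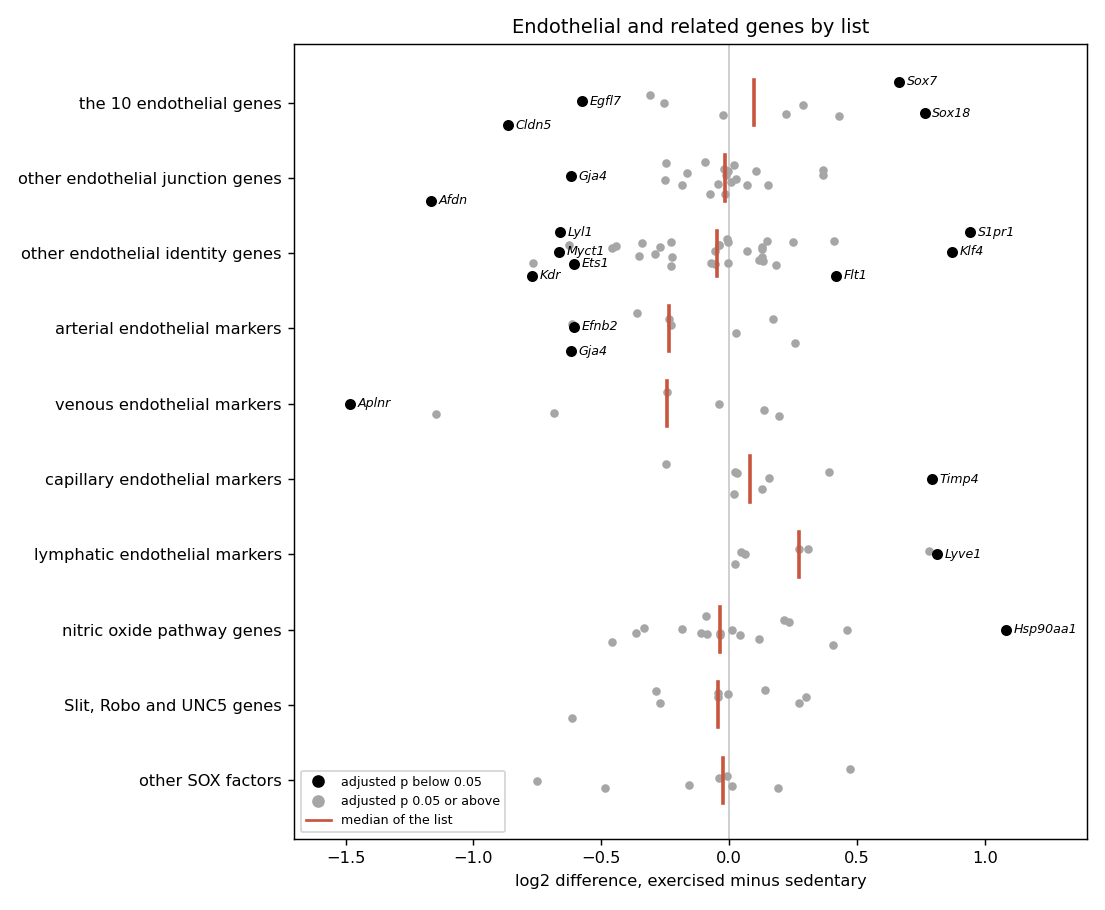
Log2 difference of exercised minus sedentary mice (horizontal axis) for each measured gene of the 10 endothelial genes and of 9 related lists. Black points passed at an adjusted p below 0.05 and carry the gene name, grey points did not, and the red bar is the median of the list; the vertical spread within a list has no meaning.

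Promoter windows from RefSeq, on build GRCm38.p6, reach from 250 bases before to 50 bases after a transcript start. They were matched by symbol for 4 of the 10 genes, Cldn5, Egfl7, Emcn and Robo4, with 6 windows in all; Sox7, Sox17, Sox18, Cdh5, Pecam1 and Nos3 had none matched. The windows of the 2 genes that fell, Cldn5 and Egfl7, are shown, for Egfl7 those of the starts with a motif. The motifs searched on both strands were ACAAAG and ACAATG for SOX factors, CCGGAAG for ETS, AGATAA for GATA and CCACCC for KLF factors, and matches are in capitals.
Cldn5, chr16:18776597-18776896, plus strand: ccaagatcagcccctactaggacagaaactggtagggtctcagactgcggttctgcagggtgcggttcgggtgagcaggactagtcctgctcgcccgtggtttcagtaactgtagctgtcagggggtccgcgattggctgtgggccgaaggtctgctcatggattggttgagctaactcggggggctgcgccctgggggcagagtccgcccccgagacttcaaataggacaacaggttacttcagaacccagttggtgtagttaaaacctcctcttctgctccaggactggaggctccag
Egfl7, chr2:26583615-26583914, plus strand: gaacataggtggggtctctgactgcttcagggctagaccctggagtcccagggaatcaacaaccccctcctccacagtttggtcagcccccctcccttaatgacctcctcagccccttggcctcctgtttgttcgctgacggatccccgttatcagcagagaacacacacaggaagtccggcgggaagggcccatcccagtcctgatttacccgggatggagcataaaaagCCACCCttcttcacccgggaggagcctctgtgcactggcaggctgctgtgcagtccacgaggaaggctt
Egfl7, chr2:26586386-26586685, plus strand: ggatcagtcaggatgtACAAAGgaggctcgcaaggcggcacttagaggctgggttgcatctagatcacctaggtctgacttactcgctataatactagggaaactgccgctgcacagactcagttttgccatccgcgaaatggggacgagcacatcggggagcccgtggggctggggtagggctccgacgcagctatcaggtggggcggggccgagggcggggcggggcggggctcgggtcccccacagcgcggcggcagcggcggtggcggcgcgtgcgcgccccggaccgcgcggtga
The Cldn5 window held 0 of these motifs. The Egfl7 windows held a KLF match at base 232 of the first shown and a SOX match at base 17 of the second. A SOX motif of either kind was present in 28.6% and the KLF motif in 31.5% of all 32851 windows. The last Egfl7 window had 31 CpG dinucleotides, the Cldn5 window 12, and the median of all windows was 7. Robo4 held 2 overlapping KLF matches, and the Emcn window held 0 of the motifs.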

How the data were processed

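The members and gene lists were chosen with earlier results of these data known. Total RNA of quadriceps was labelled with Cy3 and hybridised to 1-colour Agilent arrays. The scanner files that the authors deposited hold linear spot intensity, already background-subtracted and detrended by Agilent Feature Extraction 10.5.1.1 per the file headers, while the submitters' processing notes name version 9.1. The authors' deposited value table (41250 values per array) matches this intensity within 0.1% for probes of a single spot; how repeated spots were combined in it is not given in the sources used here, and it was used as an alternative source. Control spots and outlier-marked spots were dropped, and repeated spots averaged per probe. The analysis used log2 of this intensity minus the array's own 75th percentile. Probes needed a signal well above background in 6 or more of 12 arrays; where a gene had several such probes, that of the highest mean stood for it, leaving 16526 genes and unnamed probes. Probes were named through the RefSeq gene table where their accession matched (26868 probes), otherwise by the file; 30539 of 41174 had a symbol. The number of arrays, 6 per group, limits the precision.

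Exercised was compared with sedentary in limma 3.58.1 (R 4.3.3), without a block, with Benjamini-Hochberg adjustment over all genes; the procedure was tested on simulated data. Folds are back-transformed from the log2 difference, and intervals are at 95%. Listed marker sums are sums of linear signal over the 75th percentile, so the brightest probes weigh most in them. The array titles share set and animal numbers between groups for 4 pairs, and the labels do not state whether these numbers pair the mice. The correlations of their deviations ran from -0.19 to 0.28, which cannot settle it, and the mice were treated as unpaired. The genes named are the 10 members, the 3 genes with the smallest p of each endothelial or pathway list and any further gene past the threshold, markers of other cells where a call was lost with their score, and for each member the 3 genes most like it, of which 1 is not reported here. Alternatives were other scalings, backgrounds, probe filters, variance models, blocks by slide and title set, cell type scores as covariates, and each array left out in turn. A comparison of the SOXF proteins was planned and is not given here.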

Additional observations from a re-analysis of the deposited data

Results flagged for a closer look

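In 2 of the 20 groups of 6 mice, the 10 genes in exercised and in sedentary muscle, a single mouse lay far from the others by Dixon's test; chance gives about 1 in 20. Pecam1 had its highest exercised level in mouse s2m3, at 0.14, where the next was -0.20. Nos3 had its lowest exercised level in mouse s2m4, at 0.18, where the next was 0.54. Without s2m4 the Nos3 difference was 0.37 (limma adjusted p = 0.0317), against 0.29 (0.153) with all mice. Of the 12 fits with 1 array left out, this was the only 1 in which Nos3 passed.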

How the results depend on the processing

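The direction of Sox7, Sox17, Sox18, Cldn5, Egfl7, Cdh5, Robo4 and Nos3 held under each of the 34 alternatives, while the calls depended on them. Some alternatives, such as an adjusted p below 0.10, leave the estimate as it was and could not change a direction. The fits with 1 array left out share most of their arrays, so the number of alternatives does not measure support. Of the 10 genes 4 passed at first, and the count was 2 with median scaling, beside 408 of all genes. It was 1 with no filter on dim probes, 1 with slide as a block and 1 with the tendon score. It was 0 within slides 1, 2 and 3, where the few arrays leave little room for a call, so these counts say little about the 10 genes. The 601 genes became 316 with no filter, 348 with the slide block, 0, 8 and 0 within slides 1, 2 and 3, 294 with the tendon score and 1012 at an adjusted p below 0.10. Normexp background correction called 0 genes and 0 of the 10 (limma, 106 and 0 at an unadjusted p below 0.05). The highest local background of a spot was 80134.5, 70485, 599386 and 84527.5 on exercised s2m1 and s2m4 and sedentary s2m4 and s2m5. The median backgrounds of these arrays were 23, 22, 20 and 21. With the background of each spot limited to 2 times the array's median, an alternative added after seeing the data, normexp called 451 genes and 4 of the 10. Whether those spots account for the lost calls was not tested further. On the 8 arrays with shared set and animal numbers, the replicate block called 29 genes and 0 of the 10 (5 at an unadjusted p below 0.05, limma), and the same arrays without the block 130 and 0 (7 at an unadjusted p below 0.05, limma); in 1 of the 4 pairs the arrays correlated best with their own number. Leaving out 1 array gave 419 to 572 genes and 1 to 4 of the 10.

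Pecam1, at -0.026, changed sign to 0.0085 with normexp, 0.067 with the adipocyte score, 0.032 in the deposited table, 0.036 and 0.052 within slides 1 and 2, and 0.0109, 0.000302 and 0.011 without exercised s2m1, sedentary s1m1 and sedentary s1m6, over a range of -0.0956 to 0.011 with 1 array left out. Emcn, at -0.31, was 0.13 within slide 2. The cause of these differences was not tested. Normexp moved the median of all genes by 0.024 on the log2 scale, and median scaling by -0.0022. Within slides, 1 group of each of slides 1 and 2 has a single array, taken to have the spread of the other group.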
